A study of Mus musculus with 17 samples.

Results

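The distal convoluted tubule is the short segment of the kidney tubule that follows the thick ascending limb. Its cells were taken from the 9 kidney libraries as those with at least 2 UMIs (unique molecular identifiers, 1 for each captured RNA molecule) of Slc12a3, at most 1 UMI each of Slc12a1 and Aqp2, and none of Ptprc, among cells with at least 200 detected genes and at most 30% of their UMIs from mitochondrial (mt-) genes. This gave 966 of the 68159 kidney cells that passed the same filters on genes and mitochondrial UMIs. The whole series of 17 kidney and skin libraries held 98780 such cells. Slc12a3 encodes the sodium chloride cotransporter NCC that defines the segment, Slc12a1 the cotransporter of the thick ascending limb, Aqp2 the water channel of collecting duct principal cells, and Ptprc the pan-leukocyte protein CD45.

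All mice were 8 weeks old and carried PDGFRb-Cre and the Z/EG reporter, in which Cre switches on GFP. Wild-type (WT) mice were compared with SARATg mice, in which Cre also switches on a human ZFYVE9 (SARA) cDNA placed at Rosa26 behind a CAG promoter and a lox-stop-lox cassette. Kidney fibrosis was induced with aristolochic acid, a plant nephrotoxin, injected intraperitoneally at 5 mg per kg body weight 3 times a week for 3 weeks, and control mice were injected intraperitoneally with vehicle. There were 3 WT vehicle, 3 WT aristolochic acid, 2 SARATg vehicle and 1 SARATg aristolochic acid libraries. The tissue was digested with Liberase, GFP+ cells were sorted, and droplet libraries were made with the 10x Genomics 3′ v3 chemistry. The labels call all of these cells PDGFRb+GFP+. Pdgfrb itself had 2 UMIs in the summed distal convoluted tubule cells of all 9 libraries, both from WT vehicle library 2.

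Cells of this segment take up sodium chloride from the urine through NCC, the target of thiazide diuretics. WNK kinases activate NCC through the kinases SPAK and OSR1, and an ubiquitin ligase built from KLHL3 and CUL3 removes WNK kinases. The same cells set the final magnesium content of the urine through the channel TRPM6, and the late part of the segment takes up calcium with the help of calbindin. The segment has very many mitochondria and is rich in the sodium pump.

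The libraries held 28660151 to 137093834 UMIs, and the distal convoluted tubule cells 182577 (19 cells, SARATg vehicle library 1) to 2753987 UMIs (298 cells, WT vehicle library 2). Their median depth per library was 6326 to 12474 UMIs per cell, and the median mitochondrial share was 4.35% to 9.04%. Between 0 and 6 of these cells in a library shared a barcode with a cell of another kidney library, and simulated doublet scores marked 1.41% to 14.9% of them. Zfyve9 over all kept cells went against the label in 2 libraries. It stood at 166 CPM (counts per 1000000 UMIs) in the library labelled WT aristolochic acid 1 and at 20.7 CPM in the library labelled SARATg aristolochic acid 1, against 95.8 and 92.2 CPM in the SARATg vehicle libraries and 10.9 to 31.9 CPM in the other 5 WT libraries. Groups are given below as labelled, with both of these libraries in them. The counts do not tell mouse Zfyve9 from the human cDNA, and the gene list has no entry for the cDNA or for GFP. Xist was high and the Y-linked Ddx3y near 0 in WT vehicle library 2 and the library labelled SARATg aristolochic acid 1, and the reverse held in the other 7. WT vehicle library 3 stood apart from its group: over the distal convoluted tubule sums it was most like the library labelled WT aristolochic acid 1 (Spearman correlation over genes 0.889), above its values of 0.819 and 0.811 with WT vehicle libraries 1 and 2. SARATg vehicle library 1, with 19 cells, had correlations of 0.732 to 0.841 with the other libraries, the highest with WT vehicle library 1, and 0.808 with SARATg vehicle library 2.

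The Slc12a3 threshold separated cells unevenly. Just outside it, 1034 cells with a single Slc12a3 UMI had Pvalb in 0.870%, Calb1 in 2.42% and Slc34a1, a phosphate transporter of the proximal tubule, in 87.3%. The 85 cells with 2 UMIs, just inside it, had Pvalb in 15.3%, Calb1 in 18.8% and Slc34a1 in 70.6%. The 21 cells with 3 UMIs had Pvalb in 42.9%, and the 860 cells with 4 or more had Pvalb in 57.1%, Calb1 in 80.9%, Trpm6 in 62.9% and Slc34a1 in 26.2%. Among the members, those with 2 UMIs therefore had the lowest detection of the other segment markers and the highest detection of Slc34a1. The shares by UMI number are pooled over libraries and not matched for depth. By library, members with 2 or 3 UMIs were 22 of 221, 37 of 298 and 11 of 59 in WT vehicle. In WT aristolochic acid they were 5 of 53, 4 of 39 and 2 of 53. They were 4 of 19 and 13 of 71 in SARATg vehicle and 8 of 153 in SARATg aristolochic acid libraries. The median was 11864 UMIs per cell at 2 Slc12a3 UMIs, 6326 at 3 and 8066.5 at 4 or more.

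**Figure D1:**
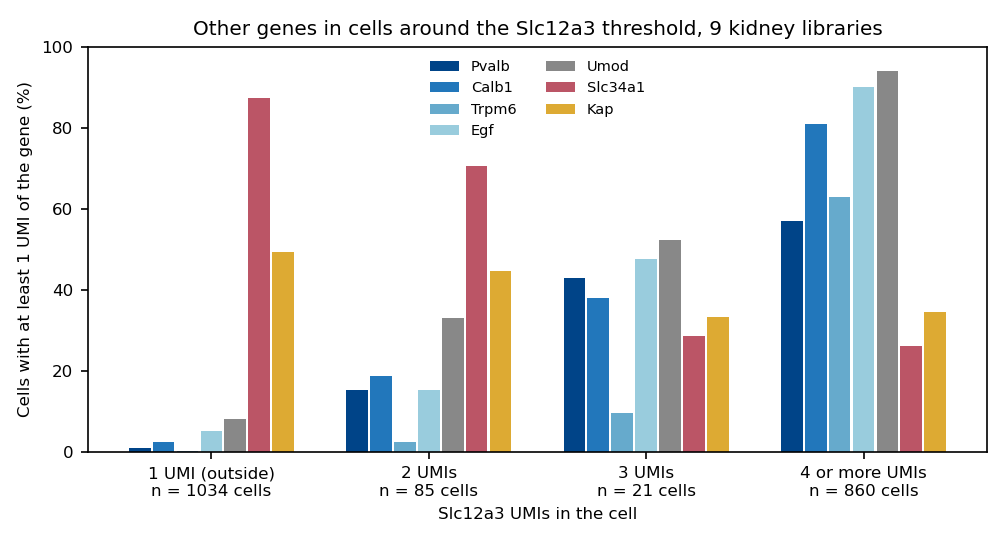
Share of cells with at least 1 UMI of each named gene (y axis, %) by the number of Slc12a3 UMIs in the cell (x axis), pooled over the 9 kidney libraries; the class with 1 UMI lies outside the rule. Bars of Pvalb, Calb1, Trpm6, Egf and Umod grow from 1 UMI to 4 or more (Pvalb from 0.870% to 57.1%), while Slc34a1 falls from 87.3% to 26.2%.

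The other markers of the segment were found in the selected cells of every library. Detection of Pvalb and Calb1 was lowest in WT vehicle library 3. Pvalb (parvalbumin; GRCm38 chromosome 15, 78191114 to 78206400, minus strand) was detected in 25.4% to 78.9% of the cells per library, with a median of 55.7%, and Calb1 (calbindin; chromosome 4, 15881264 to 15908064, plus strand) in 44.1% to 83.2%, with a median of 67.6%. In Ptprc-positive cells of the same libraries, at a median of 3531 to 5568.5 UMIs per cell, Pvalb was detected in 0.0375% to 0.635% and Calb1 in 0.206% to 1.71%. Slc12a3 itself (chromosome 8, 94329201 to 94366214, plus strand) stood at 4819 to 9926 CPM, and its median ran from 12 UMIs per cell in WT aristolochic acid library 2 to 105 in WT vehicle library 1. Since the cells were chosen on Slc12a3, these levels are a description.

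Beside the other Ptprc-negative kidney cells of the same library, the largest median folds over the 9 libraries (10 CPM added on both sides) belonged to Slc12a3 with 424, Calb1 with 85.1, Pvalb with 52.6 and Pgam2, a phosphoglycerate mutase, with 49.4. They were followed by Tmem52b with 37.7, Wfdc15b with 35.3, the defensin Defb1 with 27.7 and Egf with 26.7, and further down by Ppp1r1a with 23.7 and Wnk1 with 21.3. Against thick ascending limb cells, chosen by the mirrored rule on Slc12a1 (563 cells), the folds were 534 for Slc12a3, 108 for Calb1, 54.0 for Pvalb, 50.3 for Pgam2, 17.1 for the homeobox gene Emx1, 13.7 for S100g, 10.5 for Trpm6, 7.27 for Klhl3 and 5.59 for Wnk1. Umod, which encodes uromodulin, a product of the thick ascending limb, stood at 2396 to 5704 CPM in the distal convoluted tubule cells, 7978 to 17424 CPM in thick ascending limb cells and 39.5 to 219 CPM in Ptprc-positive cells. The markers of the segment were thus present as its name says, with Umod at an intermediate level. No test was made of these differences, because the rule that chose the cells fixes part of them.

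Markers of other kidney cells were mostly low, apart from those of the thick ascending limb and the proximal tubule. The 5 thick ascending limb genes summed to 2564 to 5776 CPM in the selected cells, most of it Umod, against 9213 to 18802 CPM in thick ascending limb cells. For the 14 proximal tubule genes the summed level was 22739, 4794 and 6591 CPM in the WT vehicle libraries, 4711, 3848 and 549 CPM in the WT aristolochic acid libraries, 21925 and 7061 CPM in the SARATg vehicle libraries and 1699 CPM in the library labelled SARATg aristolochic acid 1. The Ptprc-positive cells of the same libraries held 26430, 10324 and 4599, then 1683, 5544 and 1704, then 13101 and 9187, and 1608 CPM in the same order. These cells needed only 1 Ptprc UMI. In WT vehicle library 1 their 11 leukocyte genes summed to 9150 CPM, and 42.9% of them had Slc34a1. How many of them were leukocytes was not tested. The libraries with the highest and the second highest level in Ptprc-positive cells, WT vehicle library 1 and SARATg vehicle library 1, were also the 2 highest in distal convoluted tubule cells. Kap, an androgen-regulated proximal tubule gene, ranged from 2.28 to 16036 CPM, and its lowest values were 2.28 CPM in the library labelled SARATg aristolochic acid 1 and 6.54 CPM in WT vehicle library 2, which are the libraries without Ddx3y.

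**Figure D2:**
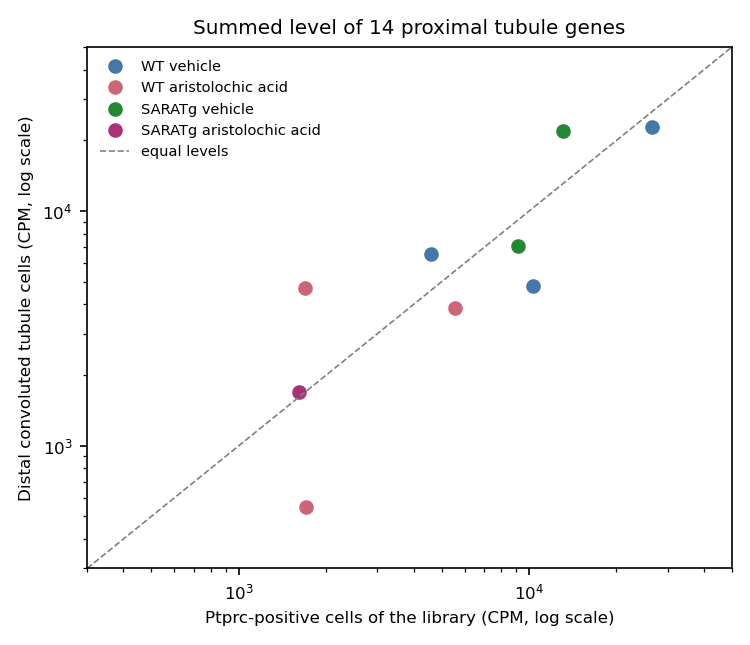
Summed CPM of 14 proximal tubule genes in Ptprc-positive cells (x axis, log scale) and in distal convoluted tubule cells (y axis, log scale), 1 point per library, coloured by group, with a dashed line at equal levels. The WT aristolochic acid points lie at or below 4711 CPM on the y axis, and WT vehicle library 1 and SARATg vehicle library 1 lie highest (22739 and 21925 CPM).

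The 11 leukocyte genes summed to 16.4 to 1491 CPM in the selected cells, highest in WT vehicle library 3 and at 911 CPM in SARATg vehicle library 2, against 9150 to 27718 CPM in Ptprc-positive cells. The 8 endothelial genes summed to 575 CPM in SARATg vehicle library 1 and to at most 117 CPM elsewhere. The stromal genes Col1a1, Col3a1 and Lum had no UMI in any distal convoluted tubule sum. The 5 erythroid genes summed to 1287 CPM in WT vehicle library 2 and to at most 5.48 CPM in the others.

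The late part of the segment is known for calbindin and the early part for parvalbumin, so each cell was placed by whether it held a UMI of either gene. Cells with both made up 48.0%, 53.4% and 22.0% in the WT vehicle libraries, 54.7%, 33.3% and 56.6% in the WT aristolochic acid libraries, 52.6% and 63.4% in the SARATg vehicle libraries and 29.4% in the library labelled SARATg aristolochic acid 1. Cells with Calb1 alone were 26.2%, 29.9% and 22.0%, then 5.66%, 43.6% and 9.43%, then 10.5% and 4.23%, and 52.3%. Cells with Pvalb alone were 5.88%, 2.35% and 3.39%, then 18.9%, 0% and 17.0%, then 21.1% and 15.5%, and 4.58%. Cells with neither gene were 19.9%, 14.4% and 52.5%, then 20.8%, 23.1% and 17.0%, then 15.8% and 16.9%, and 13.7%. More than 50% of the cells of WT vehicle library 3 thus held neither marker. WT aristolochic acid libraries 1 and 3 thus held more Pvalb-only than Calb1-only cells, as did both SARATg vehicle libraries, whereas library 2 of the WT aristolochic acid group had none of its 39 cells in the Pvalb-only class. Cells with at least 1000 UMIs (215 of 221 in WT vehicle library 1) were also thinned to 1000 UMIs each. Among them the Pvalb-only share was 28.3%, 0% and 18.9% in the WT aristolochic acid libraries and 10.2%, 6.71% and 3.39% in the WT vehicle libraries. A count of 0 among 39 cells allows a share of up to 7.69% by the limit of 3 counts.

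The Spearman correlation of the depth-scaled Pvalb and Calb1 levels over the cells of a library ran from 0.207 to 0.644 with a median of 0.490, above 0 in all 9 libraries. Calb1 and S100g, which encodes another vitamin D dependent calcium buffer, had a median of 0.379, and Pvalb and S100g a median of −0.103 with a range from −0.334 to 0.382. Trpm6 and Pvalb had a median of 0.257, from 0.114 to 0.369. The cells of a library share its free RNA and differ in depth, so these values are descriptions only.

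The distal convoluted tubule cells were 221 of 11037 cells (2.00%), 298 of 10900 (2.73%) and 59 of 7373 (0.80%) in the WT vehicle libraries. In the WT aristolochic acid libraries they were 53 of 7605 (0.697%), 39 of 4509 (0.865%) and 53 of 5614 (0.944%). SARATg vehicle libraries held 19 of 6788 (0.280%) and 71 of 6588 (1.08%), and the library labelled SARATg aristolochic acid 1 153 of 7745 (1.98%). WT vehicle libraries 1 and 2 were above every WT aristolochic acid library, and vehicle library 3 lay inside their range. The WT aristolochic acid mean was 0.835% ± 0.126 (SD, n = 3) against 1.85% ± 0.976 (SD, n = 3), a difference of −1.01 percentage points (exact permutation test over libraries, two-sided, p = 0.3; 3 against 3 cannot go below 0.1). Without WT vehicle library 2 the difference was −0.566 points, without WT vehicle library 3 it was −1.53 points, and without the library labelled WT aristolochic acid 1 it was −0.941 points. For SARATg against WT with vehicle the difference was −1.17 points (0.679% ± 0.564, n = 2; exact permutation test, p = 0.3, smallest possible 0.1), −0.723 points without WT vehicle library 2, −1.57 without SARATg vehicle library 2 and −0.768 without SARATg vehicle library 1.

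The share of Ptprc-positive cells differed between the libraries: 12.1%, 17.2% and 72.3% in the WT vehicle libraries, 82.1%, 56.1% and 81.3% in the WT aristolochic acid libraries, 48.1% and 50.3% in the SARATg vehicle libraries and 66.3% in the library labelled SARATg aristolochic acid 1. Of the Ptprc-negative cells alone, distal convoluted tubule cells made up 2.28%, 3.30% and 2.89% with vehicle and 3.89%, 1.97% and 5.06% with aristolochic acid in WT. On that denominator the difference was 0.818 percentage points in the other direction (3.64% ± 1.56 against 2.82% ± 0.514, SD, n = 3 each; exact permutation test, p = 0.5). The SARATg vehicle libraries stood at 0.539% and 2.17% of Ptprc-negative cells, both below every WT vehicle library, a difference of −1.47 points (exact permutation test, n = 2 against 3, p = 0.1, the smallest possible), and the library labelled SARATg aristolochic acid 1 at 5.86%. The direction of the drug comparison in WT was thus set by the denominator, and neither comparison passed a threshold of 0.05. Fewer cells of a type and less RNA per cell were separated only as far as the threshold of 2 Slc12a3 UMIs allows.

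**Figure D3:**
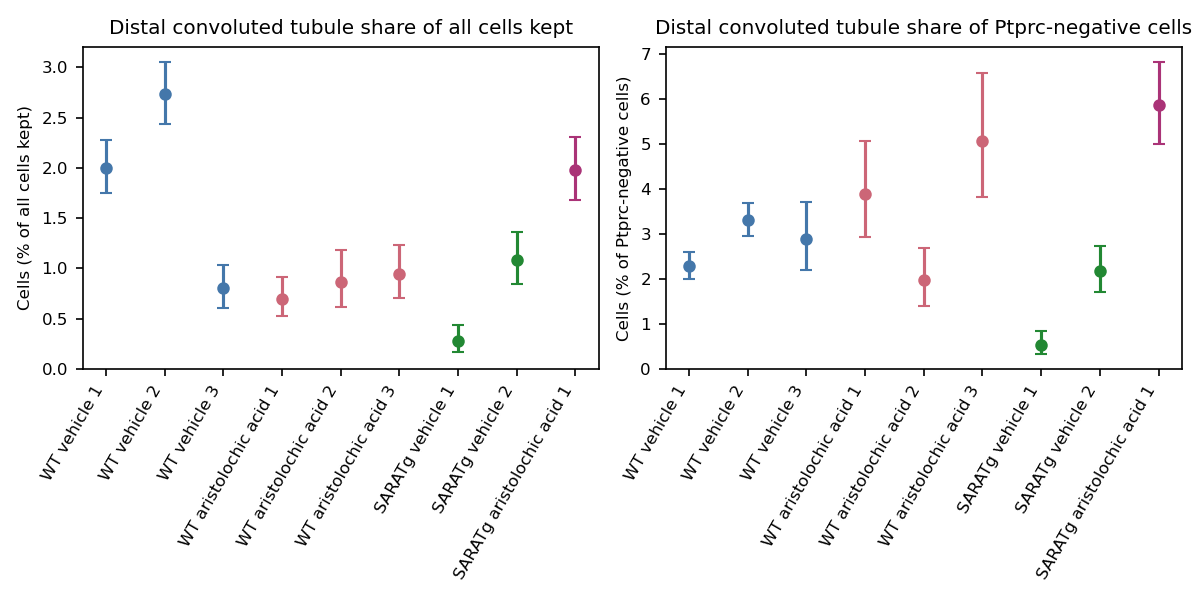
Distal convoluted tubule cells as a percentage of all kept cells (one panel) and of Ptprc-negative cells (the other panel), 1 point per library with its exact 95% binomial interval, coloured by group. Of all cells, WT vehicle libraries 1 and 2 (2.00% and 2.73%) lie above the WT aristolochic acid libraries (0.697% to 0.944%); of Ptprc-negative cells, the 2 groups overlap. The intervals cover counting error only.

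Gene expression was compared over sums per library, so each library counts once. With aristolochic acid against vehicle in WT, edgeR tested 9481 genes and called 0 at an adjusted p of 0.05 (0%), and the smallest adjusted p was 0.390. At an unadjusted p below 0.05 there were 996 genes, 451 higher (4.76% of those tested) and 545 lower (5.75%). DESeq2 on the same sums called 26, of which 14 were higher and 12 lower. Its default filter on mean counts was left on, so its p-values were adjusted over fewer genes than those of edgeR. The 2 counts are therefore not on the same footing. Without the 2 libraries whose Zfyve9 went against their labels edgeR also called 0, and without WT vehicle library 3 it called 6. Genes whose 3 aristolochic acid libraries all lay above the 3 vehicle libraries were 513 (5.41%), and those all below were 589 (6.21%). The median log2 fold change over all genes was −0.04. The adjusted p-values given for this comparison are those of edgeR over all genes tested, unless DESeq2 is named. The labels do not say that libraries came from separate mice, so p-values measure the spread between these libraries. Genes named with an unadjusted p below 0.05 were singled out after their values were seen.

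Genes for sodium chloride transport and its control by WNK kinases were mostly at lower estimates with aristolochic acid, and none was called. Of 10 tested genes besides Slc12a3, 8 had a lower and 2 a higher estimate, with a median log2 fold change of −0.46. A lower estimate with an unadjusted p below 0.05 was found for 1 (Nedd4l), beside 5.75% of all genes tested. Slc12a3 stood at 9926, 9631 and 4819 CPM with vehicle and 5158, 5330 and 6090 CPM with aristolochic acid in WT, 8402 and 5472 CPM in SARATg vehicle and 9741 CPM in SARATg aristolochic acid libraries. WT vehicle library 3 was the lowest of all 9, so the WT groups overlapped. Wnk1, whose kidney-specific form lacks most of the kinase domain and is made in this segment, read 3367, 2947 and 1063 CPM with vehicle and 1193, 2089 and 1283 CPM with the drug (log2 −0.61 ± 0.31 SE, adjusted p = 0.517). Klhl3 went the same way with 435, 548 and 107 CPM against 152, 251 and 198 CPM (−0.76 ± 0.39, adjusted p = 0.523). In both genes the third vehicle library lay below the lowest aristolochic acid library.

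Nedd4l, a ubiquitin ligase that acts on NCC and on the epithelial sodium channel, was lower in every aristolochic acid library: 49.2, 71.2 and 55.5 CPM with vehicle and 46.4, 20.2 and 18.8 CPM with the drug (−0.94 ± 0.38, adjusted p = 0.443). Wnk4, the other WNK kinase of the segment, read 358, 294 and 197 CPM against 279, 358 and 318 CPM (0.21 ± 0.17, adjusted p = 0.700), and the 2 groups overlapped. Ppp1r1a, an inhibitor of protein phosphatase, ranged from 712 to 1308 CPM over the 9 libraries, again with WT vehicle library 3 as the lowest. The kinases themselves, Stk39 (SPAK) and Oxsr1 (OSR1), ran from 62.1 to 164 CPM and from 5.28 to 27.6 CPM over the 9 libraries, with estimates of 0.31 ± 0.24 and −0.81 ± 0.47.

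Magnesium handling showed a similar split. Of 13 tested genes 9 had a lower and 4 a higher estimate (median −0.34). At an unadjusted p below 0.05 were 1 higher and 1 lower, beside 4.76% and 5.75% of all genes tested. Trpm6, the apical magnesium channel, read 162, 153 and 67.3 CPM with vehicle and 86.1, 95.3 and 34.7 CPM with aristolochic acid in WT, 137 and 79.1 CPM in SARATg vehicle and 172 CPM in SARATg aristolochic acid libraries (−0.78 ± 0.39, adjusted p = 0.511). Its relative Trpm7 read 587, 708 and 202 CPM against 313, 321 and 302 CPM (−0.58 ± 0.30, adjusted p = 0.520). In both genes WT vehicle libraries 1 and 2 were above and library 3 within or below the drug libraries.

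Egf, the precursor of a growth factor that stimulates TRPM6, varied widely within groups: 1833, 1019 and 281 CPM with vehicle, 282, 826 and 436 CPM with the drug, 2706 and 1237 CPM in SARATg vehicle and 926 CPM in SARATg aristolochic acid libraries (WT drug effect −0.93 ± 0.55, adjusted p = 0.572). Egfr, its receptor, was far lower, at 19.2, 14.5 and 6.60 CPM against 7.95, 5.78 and 1.45 CPM (−1.36 ± 0.58, adjusted p = 0.457), with vehicle library 3 inside the drug range. Fxyd2, the gamma subunit of the sodium pump, went the other way. It read 10415, 12333 and 8248 CPM with vehicle and 12968, 15190 and 15874 CPM with aristolochic acid, so that every drug library was above every vehicle library (0.53 ± 0.19, adjusted p = 0.421). The SARATg vehicle libraries stood at 8161 and 8528 CPM and the library labelled SARATg aristolochic acid 1 at 13207 CPM.

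**Figure D4:**
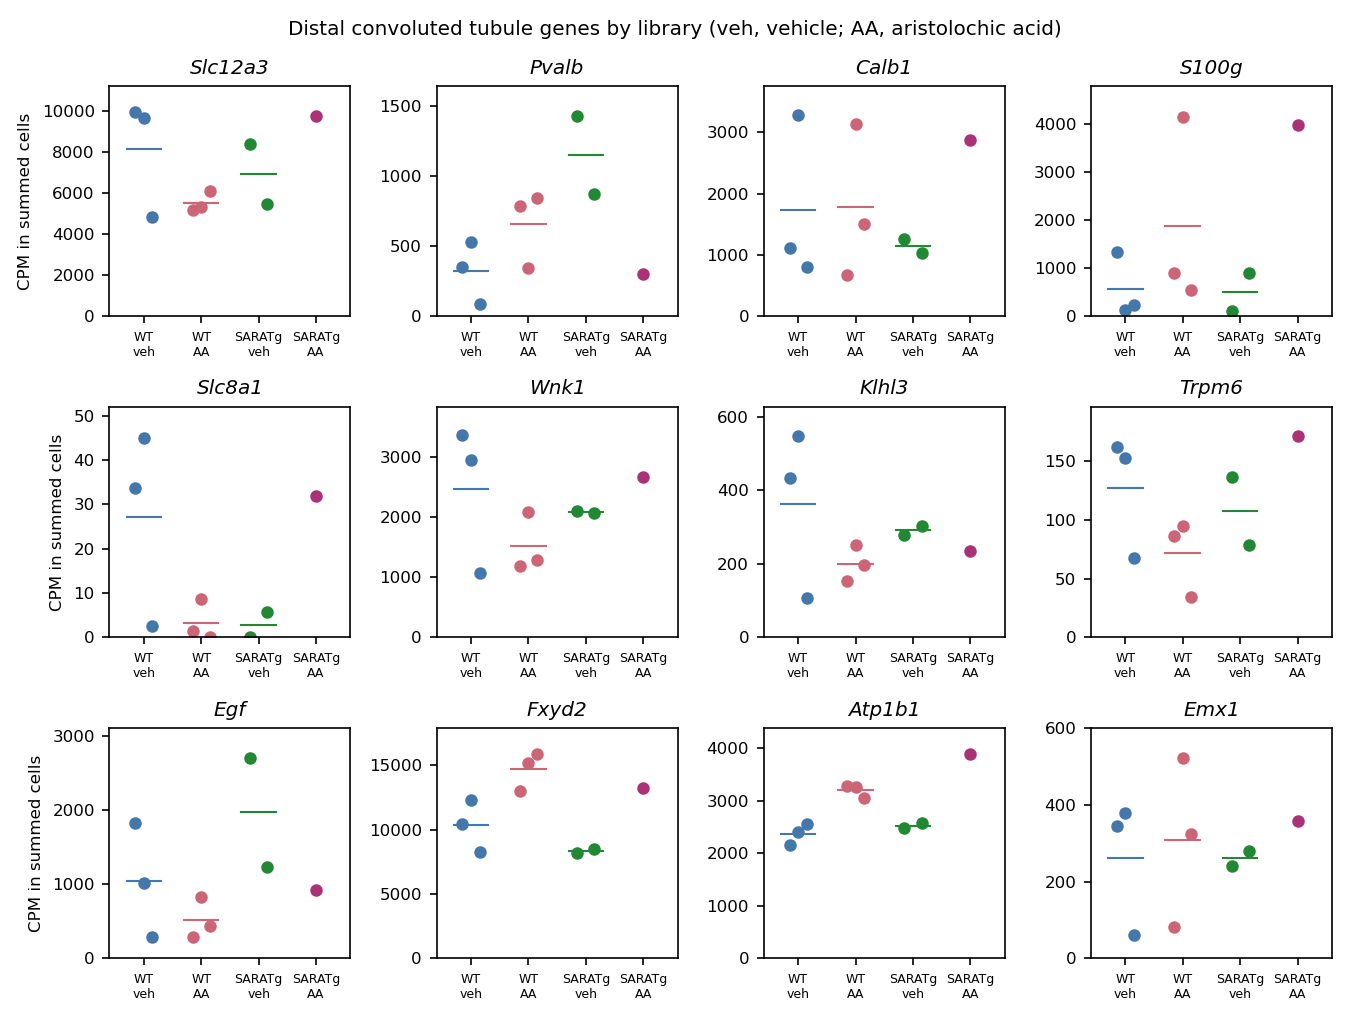
CPM of named distal convoluted tubule genes in the summed cells of each library (points) by group, with a line at the group mean; each panel has its own linear axis from 0. Fxyd2 and Atp1b1 in the WT aristolochic acid libraries lie above all WT vehicle libraries, while in Slc12a3, Trpm6 and Egf the third WT vehicle library lies within or below the drug group.

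Among calcium genes the 2 markers of the segment behaved differently. Pvalb read 352, 530 and 88.5 CPM with vehicle and 791, 344 and 845 CPM with aristolochic acid in WT (1.17 ± 0.51, adjusted p = 0.466), with drug library 2 inside the vehicle range. Calb1 read 1116, 3286 and 797 CPM against 673, 3143 and 1513 CPM (0.09 ± 0.54, adjusted p = 0.993), and its direction changed when single libraries were left out. S100g spread widely inside each WT group, at 1338, 140 and 231 CPM against 911, 4160 and 543 CPM. Of 11 tested genes 5 had a higher and 6 a lower estimate (median −0.30). At an unadjusted p below 0.05 were 1 higher and 2 lower, beside 4.76% and 5.75% of all genes tested.

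The 2 lower genes were the exit pathways of calcium. Slc8a1, the sodium calcium exchanger, read 33.7, 45.0 and 2.64 CPM with vehicle and 1.32, 8.67 and 0 CPM with aristolochic acid (−3.43 ± 1.03, adjusted p = 0.397), with vehicle library 3 inside the drug range. Its detection was 21.3%, 21.8% and 3.39% of cells with vehicle and 1.89%, 7.69% and 0% with the drug. In Ptprc-positive cells of the same libraries it was 6.43%, 7.59% and 2.08%, then 2.29%, 0.672% and 1.93%, at lower depth, and in thick ascending limb cells 0%, 0.962% and 0% with vehicle and 0% in all 3 drug libraries. Among cells with at least 1000 UMIs, thinned to 1000 each, the distal convoluted tubule shares were 3.72%, 4.36% and 0% with vehicle and 0%, 2.56% and 0% with the drug. Atp2b1, a plasma membrane calcium pump, was lower in every drug library, at 123, 143 and 114 CPM against 80.8, 89.6 and 65.0 CPM (−0.68 ± 0.20, adjusted p = 0.397). Trpv5, the calcium channel of the late distal tubule, was at 0 in all libraries but WT vehicle library 2 (1.09 CPM) and the library labelled SARATg aristolochic acid 1 (6.08 CPM).

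Genes of the basolateral membrane leaned upward with aristolochic acid: 7 of 8 had a higher estimate (median 0.20), none had an unadjusted p below 0.05, and 2 lay above every vehicle library, against 5.41% of all genes tested. Of these, Atp1b1, the beta subunit of the sodium pump, read 2155, 2399 and 2555 CPM with vehicle and 3288, 3270 and 3064 CPM with the drug in WT (0.42 ± 0.23, adjusted p = 0.536). The potassium channel subunits Kcnj10 and Kcnj16 overlapped between the groups, with estimates of 0.17 ± 0.21 and 0.20 ± 0.20.

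Of 9 tested late distal genes that respond to aldosterone, 4 had a higher and 5 a lower estimate (median −0.19), or 6 and 3 (median 0.29) without WT vehicle library 3. Scnn1a, a subunit of the epithelial sodium channel, read 109, 153 and 103 CPM with vehicle and 117, 231 and 208 CPM with aristolochic acid (0.60 ± 0.25, adjusted p = 0.449), with drug library 1 inside the vehicle range. Nr3c2, the mineralocorticoid receptor, ranged from 3.96 to 60.6 CPM and was lowest in WT vehicle library 3. Of 16 tested transcription factors of the distal nephron, 7 had a higher and 9 a lower estimate (median −0.12). Pax8 was the 1 with an unadjusted p below 0.05, beside 5.75% of all genes tested that were lower at that level. It read 48.2, 45.8 and 52.8 CPM against 25.2, 28.9 and 13.0 CPM (−1.14 ± 0.42, adjusted p = 0.434), and its drug libraries all lay below the vehicle libraries. Emx1 and Lhx1 were low in WT vehicle library 3 (62.1 and 31.7 CPM) and in the library labelled WT aristolochic acid 1 (82.1 and 62.2 CPM) and stood at 241 to 523 CPM in the other libraries. Of 11 tested claudins and junction genes 9 had a higher estimate (median 0.34). Cldn10, with a lower estimate (−1.89 ± 0.84, adjusted p = 0.475), was alone at an unadjusted p below 0.05, again beside 5.75%.

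Glycolysis and fatty acid oxidation genes had 7 of 20 higher estimates at an unadjusted p below 0.05 and none lower, beside 4.76% of all genes tested. The 20 genes had 15 higher and 5 lower estimates and a median of 0.27, and 3 of them lay above every vehicle library, as 5.41% of all genes tested did. Ldha, the lactate dehydrogenase subunit that favours lactate, read 341, 509 and 260 CPM with vehicle and 748, 615 and 750 CPM with aristolochic acid in WT, 318 and 311 CPM in SARATg vehicle and 379 CPM in SARATg aristolochic acid libraries (0.98 ± 0.21, adjusted p = 0.390). Aldoa, the glycolytic aldolase, read 1121, 1558 and 957 CPM against 1986, 2138 and 2514 CPM (0.90 ± 0.25, adjusted p = 0.390). Pfkl, a phosphofructokinase, read 52.9, 101 and 33.0 CPM against 117, 139 and 121 CPM (1.06 ± 0.33, adjusted p = 0.397). The groups did not overlap in any of these 3 genes, and DESeq2 called Ldha and Aldoa (adjusted p = 0.0117 and 0.0321).

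The other 4 were Pgam1, Pkm, Gapdh and Ldhb, with estimates of 0.56 ± 0.18, 0.50 ± 0.20, 0.47 ± 0.20 and 0.45 ± 0.18 and overlapping groups. The fatty acid oxidation genes of the list, such as Cpt1a (0.04 ± 0.19), Acadm (−0.19 ± 0.23) and Hadha (−0.39 ± 0.30), were not among them.

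**Figure D5:**
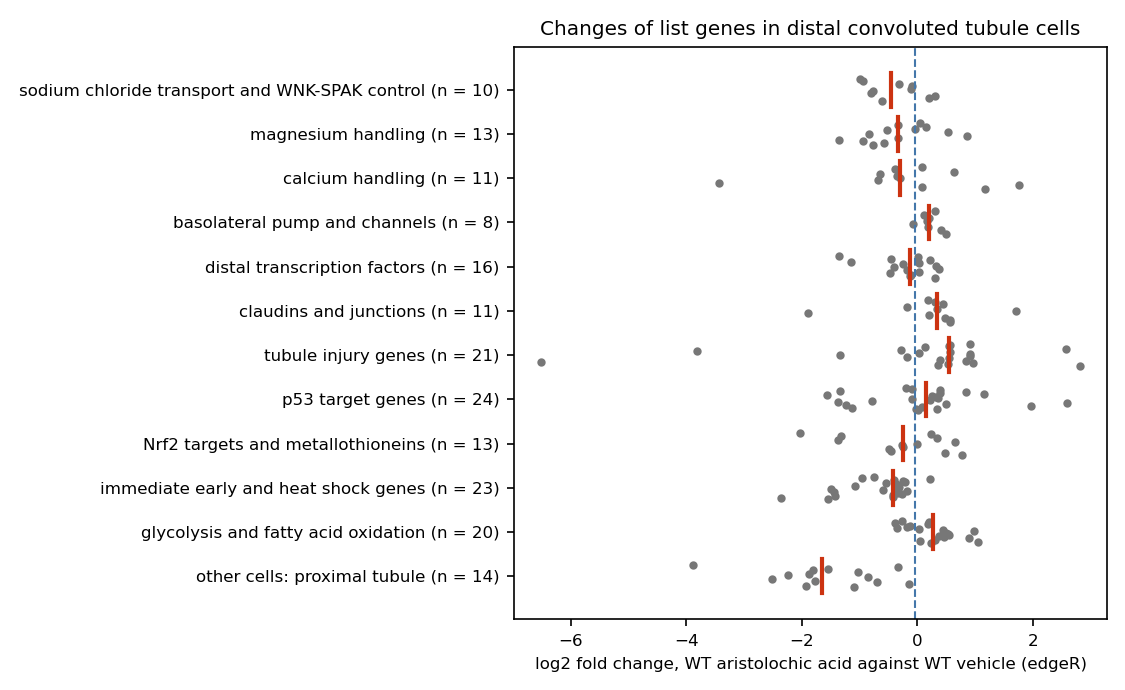
log2 fold change of WT aristolochic acid against WT vehicle (x axis, edgeR) for the tested genes of the lists shown (grey points, 1 per gene, with the number tested beside the list name); red bars mark list medians and the dashed blue line marks the median of all genes tested (−0.04). The proximal tubule list has the lowest median of those shown (−1.66) with all 14 points below 0, and 22 of 23 immediate early and heat shock genes lie below 0; no point passed the adjusted threshold.

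Immediate early and heat shock genes, which respond within minutes to stress and to tissue digestion, had lower estimates in 22 of 23 tested genes (median −0.42), 5 of them at an unadjusted p below 0.05, beside 5.75% of all genes tested. Dusp1, a MAP kinase phosphatase, read 114, 214 and 89.8 CPM with vehicle and 68.9, 46.2 and 26.0 CPM with aristolochic acid in WT (−1.49 ± 0.38, adjusted p = 0.390), without overlap, and DESeq2 called it (adjusted p = 0.0418). Fosb, an AP-1 subunit, read 349, 740 and 111 CPM against 103, 101 and 13.0 CPM (−2.36 ± 0.71, adjusted p = 0.397), also without overlap. Jun read 856, 1805 and 353 CPM against 395, 428 and 224 CPM (−1.42 ± 0.46, adjusted p = 0.397), with vehicle library 3 inside the drug range. Fos and Hsph1 were the remaining 2, at −1.55 ± 0.65 and −0.95 ± 0.32. The list was described without a test of its own, and the part of the digestion in these values was not tested.

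The proximal tubule list was lower in all 14 genes (median −1.66), 5 of them at an unadjusted p below 0.05, beside 5.75% of all genes tested. The sum of the same genes in Ptprc-positive cells was lower in drug libraries 1 and 3 than in every vehicle library. Ttc36 read 1063, 296 and 294 CPM with vehicle and 150, 142 and 137 CPM with aristolochic acid (−1.87 ± 0.44, adjusted p = 0.390; DESeq2 adjusted p = 0.00693). Of the genes that activate or carry aristolochic acid, 3 of 7 tested were at lower estimates with an unadjusted p below 0.05, beside 5.75% of all genes tested. Slc22a8 (the organic anion transporter OAT3) read 50.6, 65.7 and 29.0 CPM against 7.95, 8.67 and 1.45 CPM (−3.02 ± 0.46, adjusted p = 0.390), and Abcg2, an efflux pump, read 139, 96.6 and 63.4 CPM against 38.4, 52.0 and 14.5 CPM (−1.51 ± 0.39, adjusted p = 0.390). Slc22a6 (OAT1) read 295, 51.6 and 5.28 CPM against 11.9, 8.67 and 8.67 CPM (−3.41 ± 1.08, adjusted p = 0.397), with an overlap of vehicle library 3. OAT1 and OAT3 are known from the proximal tubule, and the part that RNA from proximal cells has in their values was not tested.

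DESeq2's call with the smallest adjusted p was Cda, cytidine deaminase, at 294, 128 and 68.7 CPM against 33.1, 34.7 and 10.1 CPM (−2.57 ± 0.52, DESeq2 adjusted p = 0.00124). Ttr, transthyretin, read 158, 101 and 83.2 CPM against 38.4, 17.3 and 26.0 CPM (−1.95 ± 0.43, DESeq2 adjusted p = 0.00605). Both had no overlap between the groups and an edgeR adjusted p of 0.390. Cda and Ttr were chosen after their values were seen. The summed proximal tubule genes in Ptprc-positive cells also fell over the 3 vehicle libraries (26430, 10324 and 4599 CPM). The part of RNA from proximal cells in the Cda and Ttr values was not tested.

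Tubule injury genes were at higher estimates in 16 of 21 tested (median 0.54), with none at an unadjusted p below 0.05. Without WT vehicle library 3 it was 17 of 18 (median 1.67), with 12 at an unadjusted p below 0.05, where 755 of all 9295 genes tested were higher at that level, and none called. Lcn2, which encodes the injury marker NGAL, read 0, 1.09 and 81.9 CPM with vehicle, 199, 23.1 and 325 CPM with aristolochic acid, 0 and 126 CPM in SARATg vehicle and 302 CPM in SARATg aristolochic acid libraries (2.82 ± 1.66, adjusted p = 0.570). It was detected in at most 15.5% of the cells of a library. Spp1, osteopontin, read 706, 1585 and 6460 CPM against 4426, 3712 and 5123 CPM, with 12856 CPM in the library labelled SARATg aristolochic acid 1. WT vehicle library 3 was in both genes above the other 2 vehicle libraries. Havcr1 (KIM-1), a proximal tubule injury gene, was at or below 5.28 CPM in every library and at 0 in all aristolochic acid libraries.

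Targets of p53, which respond to DNA damage of the kind that aristolochic acid adducts cause, had 14 higher and 10 lower estimates among 24 tested (median 0.15). Of these, 2 were higher at an unadjusted p below 0.05, beside 4.76% of all genes tested. Gdf15, a stress cytokine, read 19.7, 25.1 and 22.4 CPM with vehicle and 138, 23.1 and 217 CPM with aristolochic acid (2.58 ± 0.74, adjusted p = 0.390). Drug libraries 1 and 3 were far above the vehicle libraries, and drug library 2 was within them. Phlda3, an inhibitor of AKT, read 7.03, 6.17 and 2.64 CPM against 19.9, 26.0 and 18.8 CPM without overlap (1.97 ± 0.66, adjusted p = 0.409). Cdkn1a (p21) read 38.4, 41.0 and 284 CPM against 215, 69.3 and 113 CPM (0.02 ± 0.86, adjusted p = 1.0). It was highest in vehicle library 3, while vehicle libraries 1 and 2 lay below every drug library. Mdm2 overlapped between the groups at 64.6, 53.4 and 33.0 CPM against 46.4, 52.0 and 46.2 CPM.

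Nrf2 targets and metallothioneins had 6 higher and 7 lower estimates among 13 (median −0.25). Gstm1, a glutathione transferase, was the 1 with an unadjusted p below 0.05 (−1.32 ± 0.59, adjusted p = 0.471), beside 5.75% of all genes tested that were lower at that level. Mt1 read 1257, 2310 and 5742 CPM with vehicle and 4944, 6367 and 6415 CPM with the drug, with vehicle library 3 within the drug range. Mt2, of the same list, was called higher by edgeR without WT vehicle library 3 (log2 2.27, adjusted p = 0.0300). Interferon and antigen presentation genes had 10 higher and 11 lower estimates among 21 (median −0.12) and none at an unadjusted p below 0.05. Without WT vehicle library 3 they had 18 higher and 1 lower among 19 (median 2.06). Of the higher ones 16 had an unadjusted p below 0.05, where 755 of all 9295 genes tested were higher at that level, and 1, Psmb8, was called. The leukocyte genes summed to 33.3, 39.9 and 1491 CPM with vehicle and 328, 89.6 and 199 CPM with the drug in the same cells, with a median estimate of −1.46 over 9 genes and of 2.97 without WT vehicle library 3, and their part in these values was not tested. Cd74, an antigen presentation gene of leukocytes, read 33.3, 22.1 and 2630 CPM with vehicle, so that vehicle library 3 was the highest, as for the leukocyte genes above, and 313, 107 and 78.0 CPM with the drug. Of 16 proliferation genes 6 passed the filter on low counts, and Mki67 was at most 2.90 CPM in every library.

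SARATg was compared with WT in vehicle mice over the 2 and 3 libraries. EdgeR called 0 of 9481 genes (0%), with 423 at an unadjusted p below 0.05, 173 higher (1.82%) and 250 lower (2.64%), and DESeq2 called 2. EdgeR also called 0 without SARATg vehicle library 1. With the replicate number as a block and only the 2 groups compared it called 171 of 8035, Zfyve9 and Pvalb among them. That fit left 1 degree of freedom to measure the spread between libraries. Genes with both SARATg libraries above the 3 WT libraries were 1163 (12.3%), and those with both below were 673 (7.1%). Both comparisons use the same WT vehicle libraries. Zfyve9 in the distal convoluted tubule cells read 44.0, 55.2 and 18.5 CPM in WT vehicle, 153 and 207 CPM in SARATg vehicle, 200 CPM in the library labelled WT aristolochic acid 1, 26.0 and 17.3 CPM in the other WT aristolochic acid libraries and 22.0 CPM in the library labelled SARATg aristolochic acid 1. Both SARATg vehicle libraries were above every WT vehicle library (log2 2.12 ± 0.84, edgeR adjusted p = 0.954), so the pattern over all kept cells was also present in the sum of these cells.

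Among 12 tested genes of TGF-beta signalling, 9 had a higher estimate in SARATg (median 0.53, all genes −0.04). Of these, 3 were at an unadjusted p below 0.05 (Zfyve9, Smad6 and Smad7), beside 1.82% of all genes tested. Above every WT vehicle library lay 7, Zfyve9 among them, where 12.3% of all genes did. Zfyve9 is the gene of the transgene, so its place in these counts says nothing about the list. Smad6, an inhibitory Smad, read 8.43, 10.2 and 6.60 CPM in WT and 38.3 and 26.4 CPM in SARATg vehicle libraries (1.78 ± 0.45, edgeR adjusted p = 0.954). Smad7, the other inhibitory Smad, read 82.0, 90.1 and 40.9 CPM against 120 and 126 CPM (0.72 ± 0.29, edgeR adjusted p = 0.954), and Bmp4, a ligand, read 15.5, 20.0 and 7.92 CPM against 32.9 and 35.8 CPM (1.14 ± 0.53, edgeR adjusted p = 0.954). These levels rest on 19 and 71 SARATg cells. The same 19 cells carried 575 CPM of endothelial genes. Of 6 tested endothelial genes 4 had a higher estimate at an unadjusted p below 0.05 (list median 4.32), beside 1.82% of all genes tested. The part of endothelial RNA in the Smad6 and Bmp4 values was not tested.

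Pvalb was higher in both SARATg vehicle libraries, at 1430 and 872 CPM against 352, 530 and 88.5 CPM (1.82 ± 0.56, edgeR adjusted p = 0.954), and Calb1 was not, at 1254 and 1028 CPM against 1116, 3286 and 797 CPM (−0.64 ± 0.62). Sodium chloride genes had 1 higher and 9 lower estimates among 10 (median −0.30). Magnesium genes had a median of 0.08 over 13, calcium genes 0.12 over 11 and basolateral genes 0.02 over 8. Glycolysis and fatty acid oxidation genes had 18 of 20 lower estimates (median −0.29), 4 of them at an unadjusted p below 0.05, beside 2.64% of all genes tested, among them Pgk1 at 549, 672 and 395 CPM against 378 and 352 CPM (−0.65 ± 0.21). Interferon and antigen presentation genes had 20 of 21 lower estimates (median −0.67) and none at an unadjusted p below 0.05, but the direction turned without WT vehicle library 3, to 18 of 19 higher (median 1.64) with 12 at an unadjusted p below 0.05, where 290 of all 9295 genes tested were higher at that level, and none called. Tubule injury genes turned with them, from 13 of 21 lower (median −0.55) to 14 of 18 higher (median 0.52). Leukocyte genes in the same cells turned as well, from a median of −0.19 to 2.74 over 9 genes, and their part in these values was not tested.

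The difference between the drug's effect in SARATg and in WT rests on 1 SARATg library with aristolochic acid, which was assumed to vary like the other groups. Its Zfyve9 went against its label, as did that of the library labelled WT aristolochic acid 1 in the WT drug group. In the SARATg drug library Ddx3y over all kept cells was 0.0342 CPM, against 58.4 and 55.3 CPM in the SARATg vehicle libraries. Within SARATg the drug and this sex-linked difference cannot be told apart. EdgeR called 0 of 9481 genes (0%), 264 had an unadjusted p below 0.05 (2.78%), and DESeq2 called 0. Pvalb stood at 303 CPM in that library, beside 1430 and 872 CPM with vehicle in SARATg, whereas in WT the estimate with the drug was higher (interaction −2.98 ± 0.98, edgeR adjusted p = 1.0). Slc8a1 stood at 31.9 CPM beside 0 and 5.65 CPM (interaction 6.50 ± 1.73, edgeR adjusted p = 1.0). Trpm6 and Clu, which encodes the chaperone clusterin, had interaction estimates of 1.61 ± 0.68 and 2.81 ± 0.91, both with an edgeR adjusted p of 1.0.

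Whether aristolochic acid acted differently on the neighbouring segment was tested within the WT libraries, with 10 to 104 thick ascending limb cells per library. In WT aristolochic acid library 2, with 10 such cells, 1 UMI stood at 21.1 CPM. Of 7757 genes edgeR called 0 (0%), or 1 without the library labelled WT aristolochic acid 1, and 329 had an unadjusted p below 0.05 (4.24%). The smallest adjusted p belonged to Lcn2 (log2 difference of the effects 2.24 ± 0.34, adjusted p = 0.229). In thick ascending limb cells Lcn2 read 4.40, 11.7 and 1284 CPM with vehicle and 554, 105 and 802 CPM with aristolochic acid, and in distal convoluted tubule cells 0, 1.09 and 81.9 CPM and 199, 23.1 and 325 CPM. The level was thus higher in the thick ascending limb in all 6 libraries. Tubule injury genes as a list had the higher log2 effect in the thick ascending limb in 13 of 17 (median difference −0.60), with 3 of these and Lcn2 in the other direction at an unadjusted p below 0.05, and interferon and antigen presentation genes had it there in 16 of 18 (median difference −0.89), with 3 at that level. Without WT vehicle library 3 the injury genes had it there in 15 of 19 (median −0.86) and the interferon genes in 13 of 19 (median −0.33). Leukocyte genes, 4 of them tested, had a median difference of −2.72 and summed in thick ascending limb cells to 8.80, 27.7 and 76.2 CPM with vehicle and 54.1, 126 and 235 CPM with the drug, beside 1491 CPM in the distal convoluted tubule cells of WT vehicle library 3, and their part in these values was not tested. Fxyd2 had a difference of 0.66 ± 0.26 and read 5833, 9641 and 5415 CPM with vehicle and 6263, 5058 and 8128 CPM with the drug in thick ascending limb cells. The values there overlapped, whereas those in the distal convoluted tubule did not, and the difference itself had an adjusted p of 1.0.

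Glycolysis and fatty acid oxidation genes had a higher log2 effect in the distal convoluted tubule than in the thick ascending limb in 19 of 20 (median difference 0.36, all genes 0.01). Of these, 3 were at an unadjusted p below 0.05, beside 4.24% of all genes tested in either direction. Ldha read 319, 361 and 316 CPM with vehicle and 427, 464 and 438 CPM with aristolochic acid in thick ascending limb cells, so the drug libraries were also above the vehicle libraries there, and the difference of the effects was 0.63 with an adjusted p of 1.0. Pgam1 read 442, 531 and 501 CPM against 427, 400 and 480 CPM in that segment (difference 0.75, adjusted p = 1.0).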

How the data were processed

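Single cells of 9 kidney libraries were analysed; the 8 skin libraries were used only to count cells that meet the same rule. The deposited files hold whole UMI counts per gene and barcode, with barcodes already called, no normalization and 31053 genes in the kidney gene list. The authors made them with Cell Ranger 3.0.2 on mm10, and the submitters' processing notes also name Seurat 2.3.4. The rule's cells were taken from these counts, and no barcode was removed as a doublet (scanpy 1.11.5 scored doublets for an alternative at 0.8% per 1000 cells). The members and lists were chosen with earlier results of these data known, so no pattern here is independent support.

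UMIs were summed per library (at least 10 cells) and tested with edgeR 4.0.16 in R 4.3.3 (quasi-likelihood F test after filterByExpr and TMM scaling; p-values are two-sided and were adjusted after Benjamini and Hochberg over every gene tested, with a threshold of 0.05), with 1 fit over the 4 groups. The comparison with thick ascending limb cells had the library as a block. DESeq2 1.42.0, another normalization, no filter on low counts, a stricter filter on cells (500 genes, 20% mt-), 4 Slc12a3 UMIs, doublets, shared barcodes and single libraries left out were alternatives. Slc12a3, Slc12a1, Aqp2, Ptprc and mt- genes, which the rule used, got no test. Genes were named when they belonged to the lists (367 symbols were found, and 2, Ccn1 and Ccn2, were not), passed a test, or were Zfyve9 and Pdgfrb; others are said to be chosen after their values were seen. Shares got exact (Clopper-Pearson) 95% intervals and an exact permutation test over libraries; intervals cover counting error only. Positions are from GENCODE release 21 for mouse. The edgeR and DESeq2 steps were tested on simulated data first. Totals per sample limit the precision of low genes: a gene with 3 counts in the smallest distal convoluted tubule sum stood at 16.4 CPM. In the smallest thick ascending limb sum, from 10 cells of WT aristolochic acid library 2, 1 UMI stood at 21.1 CPM. Some genes of the lists are not reported here.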

Additional observations from a re-analysis of the deposited data

Results flagged for a closer look

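The rule was also applied to the 8 skin libraries, which no comparison uses and where no distal convoluted tubule exists. It marked 6 of 30621 skin cells, in 5 libraries with 0 to 2 each. All 6 had 2 Slc12a3 UMIs, the lowest number the rule takes, and none shared its barcode with a kidney distal convoluted tubule cell. Their source was not tested.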

How the results depend on the processing

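Counts of called genes depended on the tool and the filter. For the drug in WT, DESeq2 also adjusted over fewer genes than edgeR, after its default filter on mean counts. For aristolochic acid in WT edgeR called 0, DESeq2 26, edgeR with no filter on low counts 74, and edgeR on cells with at least 4 Slc12a3 UMIs 1 (Pck1). Without the cells marked as doublets edgeR also called 0. The 74 were 13 higher, Gdf15 among them, and 61 lower, among them Slc22a8, Slc22a6, Abcg2, Fosb and Slc8a1. Leaving out 1 library gave 0 to 6, the 6 (higher Fdps, Dcdc2a, Mt2, Psmb8 and Muc1, lower Hdc) without WT vehicle library 3. For SARATg against WT with vehicle the counts were 0, 2 with DESeq2 (Iglv1 and Gm42418), 3 with no filter and 0 without any 1 library. For the effect in SARATg against WT, leaving out 1 library gave 0 to 2, the 2 (Ddx3y and Eif2s3y) without WT vehicle library 2. For the comparison with the thick ascending limb the counts were 0, 45 with no filter, 0 to 1 with 1 library left out (H2-Aa without vehicle library 1, Id3 without drug library 1, S100a6 without drug library 3), 1 without cells of mixed identity (Hspb1) and 1 without the library labelled WT aristolochic acid 1. The 45 were 12 higher, among them Lcn2, Fxyd2 and S100g, and 33 lower. Of all kept cells, the share difference between drug and vehicle in WT was −1.53 to −0.566 points with 1 library left out and 0.818 points of Ptprc-negative cells, and that between SARATg and WT was −1.69 to −0.723 points.

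The libraries share replicate numbers, but the deviations of same-numbered libraries from their group means were not closely alike. Same-numbered WT vehicle and drug libraries had deviations correlated at −0.042, 0.265 and −0.068, WT and SARATg vehicle libraries at 0.193 and 0.006, and only 1 of 3 drug libraries was most like its own number. With 2 or 3 libraries in a group, these correlations cannot decide whether same-numbered libraries were prepared together. With the number as a replicate block and only the 2 groups compared, edgeR called 0 genes for the drug in WT and 171 for SARATg against WT, where WT vehicle library 3 has no partner. The 171 (118 higher and 53 lower of 8035 genes tested) held Zfyve9 and Pvalb (log2 1.94 and 1.44, adjusted p = 3.9e-09 and 9.6e-06) and, all higher, 10 of 16 tested interferon and antigen presentation genes and 5 of 7 tested leukocyte genes, such as Lyz2 and C1qa (log2 5.71 and 6.28). That fit left 1 degree of freedom to measure the spread between libraries. Leukocyte genes summed to 911 CPM in SARATg against 39.9 CPM in WT vehicle library 2, but to 16.4 against 33.3 CPM in the libraries numbered 1. The libraries numbered 2 also differ in Ddx3y, which is among the 171. The share differences in pairs were −1.01 points (exact permutation, p = 0.5, smallest possible 0.25) and, without WT vehicle library 3, −1.69 points (p = 0.5, the smallest possible).

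For 54 named gene estimates and 887 alternatives, 857 kept the direction and the side of the threshold, 23 passed the threshold and 7 reversed. The reversals were all in Calb1, which ran from −0.55 to 0.79 for the drug and from −0.90 to 0.068 for the genotype with 1 library left out. For the drug in WT its estimate of 0.09 became −0.17 without WT vehicle library 1, −0.16 without vehicle library 3, −0.55 without drug library 2, −0.021 at 4 Slc12a3 UMIs and −0.57 without cells of mixed identity. For SARATg against WT its −0.64 became 0.068 without WT vehicle library 2 and 0.079 in the 7 libraries with Ddx3y. The alternatives without cells of mixed identity, with Ddx3y libraries alone and without the libraries against their label were chosen after seeing the data. Leaving out cells of mixed identity with Umod counted was not run, as 7 of 9 libraries kept under 10 cells, nor was a gene list covariate, since the 9 libraries share 1 gene list. The causes of these changes were not tested. Distal convoluted tubule sums of 19 to 298 cells, and thick ascending limb sums from 10 cells up, limit what low genes can show. The 1 SARATg library with the drug has no replicate.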

Other observations

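Nuclear genes of the respiratory chain and ATP synthase, which make ATP in the many mitochondria of this segment, mostly had higher estimates with aristolochic acid in WT. They were gathered by symbol after their values were seen. Of 77 tested, 74 had a higher estimate (median log2 0.45, all genes −0.04), 44 of them at an unadjusted p below 0.05, beside 4.76% of all genes tested, and edgeR called none. DESeq2 called Cox7c, Ndufa3, Uqcr10 and Ndufb2 (adjusted p = 0.0279, 0.0306, 0.0410 and 0.0410). By family, 35 of 36 complex I genes, 3 of 4 complex II genes, all 8 complex III genes, all 13 complex IV genes and 15 of 16 ATP synthase genes were on the higher side. Cox7c, a subunit of complex IV, read 1228, 1678 and 1287 CPM with vehicle and 1796, 3438 and 3291 CPM with the drug (1.01 ± 0.26, edgeR adjusted p = 0.390). Uqcr10, a subunit of complex III, read 1163, 1550 and 897 CPM against 1437, 2383 and 2475 CPM. The second and the third drug library were the highest in both genes, and the first lay inside the vehicle range for Uqcr10.

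Summed over the 77 genes, the distal convoluted tubule cells stood at 69250, 85843 and 55705 CPM with vehicle and 78532, 113909 and 108529 CPM with aristolochic acid in WT, so only the first drug library overlapped. The SARATg vehicle libraries stood at 66290 and 58137 CPM and the library labelled SARATg aristolochic acid 1 at 81870 CPM. In thick ascending limb cells the sums were 62560, 76722 and 73334 CPM against 64215, 96434 and 84949 CPM, and in Ptprc-positive cells 30046, 33830 and 23080 CPM against 21725, 27377 and 23788 CPM. In the comparison of the 2 segments 74 of 77 genes had a higher log2 effect in the distal convoluted tubule (median difference 0.39), 27 of them at an unadjusted p below 0.05, beside 4.24% of all genes tested, and none called. Without WT vehicle library 3 the estimates were higher in 72 of 77 genes (median 0.48), and without the libraries whose Zfyve9 went against their labels in 72 of 76 (median 0.55). The cause of these values was not tested.

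Gpx1, a glutathione peroxidase, read 1634, 880 and 705 CPM with vehicle and 473, 480 and 390 CPM with the drug without overlap (−1.21 ± 0.26, edgeR adjusted p = 0.390). Fdps, an enzyme of cholesterol synthesis, read 67.0, 69.7 and 141 CPM against 217, 240 and 208 CPM (1.20 ± 0.39, edgeR adjusted p = 0.397), and the SARATg vehicle libraries stood at 32.9 and 32.0 CPM. Both were chosen after their values were seen, and the part of RNA from other cells in these values was not tested.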
